A study of Mus musculus with 41 samples.

Results

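The genes described here are 41 mouse genes of autophagy and the lysosome, taken by symbol from the 24371 genes that each of the 4 deposited count tables lists, and all 41 were found in every table. They were followed in 11 bulk RNA libraries and 26 single cells of fetal lung at E18.5, from a study of how glucocorticoids act on lung mesenchyme before birth. For the mesenchyme, dams were injected at E18.5 with 1 mg/kg of the synthetic glucocorticoid dexamethasone or with saline. Lungs of Twist2Cre;Rosa26mT/mG fetuses were taken 2 hours later and pooled by genotype, and GFP+ tdTomato- cells were sorted, so that the sorted cells are those in which the Twist2-driven Cre had acted (4 dexamethasone and 2 saline pools). In the second set, 2 CD106+ and 2 CD106- libraries were made from lung without a stated treatment, and 1 more CD106+ library came from lung labelled as treated with 1 mg/kg dexamethasone, with no time after treatment given in the labels. CD106 is the adhesion protein VCAM1. In the third set, dams of wild type C57Bl6/J mice were injected at E17.5 with 2 mg/kg dexamethasone or with saline, and single cells were caught on the C1 system 24 hours later (15 dexamethasone and 11 saline cells). Neither a number of animals per pool nor separate litters are named in the labels, so that p-values measure the spread between these libraries, which may be technical in part.

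Autophagy encloses cell contents in a double membrane and delivers them to the lysosome. A kinase complex around ULK1 starts the membrane, a lipid kinase complex marks it, and a conjugation system attaches proteins of the LC3 and GABARAP families to it. Cargo receptors bind these proteins, and lysosomal proteases digest what arrives. In muscle, glucocorticoids are known to raise autophagy genes together with the ubiquitin ligase encoded by Fbxo32.

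Total counts ran from 1670896 to 4224245 in the mesenchyme pools, from 4987175 to 7133941 in untreated CD106+ and from 5198705 to 6007400 in CD106- libraries, and stood at 3790544 in the treated CD106+ library. Cells held 215623 to 1781606 counts. Levels are given as CPM, the counts scaled to the library total, and are compared between libraries and not between genes. Fkbp5, a known glucocorticoid target, had 260, 176, 187 and 178 CPM in the dexamethasone pools, and saline had 28.7 and 40.7 CPM. The known targets Tsc22d3, Glul and Errfi1 were also above saline in every dexamethasone pool. Per1, another, overlapped, at 135, 64.9, 63.5 and 74.3 CPM against 58.7 and 73.2 CPM. The 4 dexamethasone pools held 0.41 to 0.518% of their counts in the 41 genes and the saline pools 0.337 to 0.358%. The largest differences in mean CPM among the 41 were in Lamp2 (1146.4 against 762) and Trp53inp1 (456 against 89.3). The pools also differed in other ways. The saline pools had 33133.2 and 20879.6 CPM of Xist, the RNA of the inactive X in females, and the dexamethasone pools 374, 11111.3, 12.6 and 6.59 CPM. The Y-linked gene Ddx3y stood at 74.4 to 174 CPM in dexamethasone and at 1.2 and 0 CPM in saline, so treatment and sex cannot be told apart in these pools. Summed chondrocyte markers (7 genes) stood at 505 to 1276.5 CPM in saline and 7.81 to 322 CPM in dexamethasone. Smooth muscle markers summed to 1603.3 and 1998.4 CPM in saline and 1024.6 to 1128.4 CPM in dexamethasone, and heart and skeletal muscle markers to 354 and 399 CPM and to 161 to 285 CPM. The part of these markers in the members' differences was tested for chondrocytes only, as a covariate. Mesenchyme markers (8 genes) summed to 8128.1 to 9146.0 CPM in dexamethasone and 9205.2 to 11985.2 CPM in saline, although Twist2 itself was at 0 in both saline pools and under 1 CPM in every dexamethasone pool.

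The stretches before the gene starts are shown for Gabarapl1, a member that rose, for Lamp2, which holds a glucocorticoid receptor hexamer, and for Lamp1, which holds 4 E-box cores. RefSeq promoters (GRCm38.p6) were matched by symbol for 32 of the 41 members, and the 250 bases before the start were searched. Trp53inp1, Fbxo32, Rb1cc1, Becn1, Pik3c3, Atg12, Atg16l1, Map1lc3a and Ctsb had no listed promoter and were not searched. Capitals mark TGTTCT or its reverse complement AGAACA, the hexamer that glucocorticoid receptor dimers recognise in pairs, and CACGTG, the E-box core that TFEB-family factors bind.
Gabarapl1 (chr6:129532942-129533191, plus strand): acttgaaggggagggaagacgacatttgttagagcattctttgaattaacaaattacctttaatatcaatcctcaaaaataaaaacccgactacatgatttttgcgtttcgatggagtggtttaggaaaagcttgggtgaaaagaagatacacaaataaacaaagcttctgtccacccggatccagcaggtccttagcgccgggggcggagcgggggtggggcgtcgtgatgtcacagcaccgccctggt
Lamp2 (chrX:38456461-38456710, minus strand): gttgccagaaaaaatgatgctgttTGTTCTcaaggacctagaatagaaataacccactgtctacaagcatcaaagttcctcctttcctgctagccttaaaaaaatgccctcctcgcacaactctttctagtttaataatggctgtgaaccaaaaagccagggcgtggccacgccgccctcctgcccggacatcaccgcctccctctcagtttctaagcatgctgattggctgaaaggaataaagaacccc
Lamp1, last 100 bases (chr8:13159061-13159160, plus strand): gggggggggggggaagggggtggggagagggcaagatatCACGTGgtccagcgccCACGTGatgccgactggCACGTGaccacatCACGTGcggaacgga
CACGTG was found before 6 of 32 members (18.8%), against 6.86% of all 27025 genes with a promoter. The 6 were Atg3, Atg5, Atg7, Lamp1, Ctsd and Ctsl. Lamp1 held it 4 times, beginning 61, 45, 28 and 15 bases before the start. Among the members with a match here, the windows listed for Ctsl, Atg7 and Optn lie inside the gene's span, before an internal start. Those for Atg2b, Atg4d and Atg5 reach into the span. TGTTCT or AGAACA was found before 5 of 32 members (15.6%; Atg2b, Atg4d, Atg5, Optn and Lamp2), against 18.2% of all genes. AGAACA and TGTTCT spaced by 3 bases, and the forkhead core GTAAACA on either strand, were found before 0 of 32 members, against 0.0111% and 3.54% of all genes. These are matches of letters and not measured binding.

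In mesenchyme 2 hours after injection, Trp53inp1 and Gabarapl1 rose, and no other member passed the test. Of the 41 members, 40 had enough counts to be tested, and Tfeb did not. At an adjusted p under 0.05 in edgeR's quasi-likelihood test, 2 of the 40 rose, against 1.95% of the 11356 genes tested, and 0 fell, against 0.74%. At an unadjusted p under 0.05 there were 7 higher and 1 lower, against 879 and 692 of the 11356 genes. The log2 fold change was above 0 for 28 members (70%) and below 0 for 12, with a median of 0.32, while 49.1% of all genes were above 0 with a median of -0.01. Every dexamethasone pool was above both saline pools for 10 of the 40 (9.99% of all genes), and every one was below for 2 (13% of all genes), so 28 overlapped. A rise in sorted pools cannot be told apart from more cells of a type that holds more of the RNA.

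Trp53inp1 encodes a stress-induced nuclear protein that can bind LC3 and GABARAP proteins (chromosome 4, 11156441 to 11174379, GRCm38). It stood at 483, 465, 398 and 477 CPM in the dexamethasone pools and at 87.4 and 91.3 CPM in saline. The lowest dexamethasone pool was above 4 times the higher saline pool, and the groups did not overlap. The means were 456 ± 39.5 against 89.3 ± 2.78 CPM (SD, n = 4 and 2), a log2 fold change of 2.41 (SE 0.24, edgeR adjusted p = 1.7e-05). It was called under every alternative but 1. With the linear Xist level of the pools as a covariate, chosen after seeing the data, its log2 fold change was 2.49 with an SE of 0.52 (edgeR adjusted p = 0.13), and 0 genes of 11356 passed (746 at an unadjusted p under 0.05). With the log2 Xist level it was 2.47 (edgeR adjusted p = 9.2e-05), and with chondrocyte markers 2.16 (edgeR adjusted p = 0.0043). Its relative Trp53inp2, which encodes a nuclear protein recruited to autophagosomes, stood at 94.5, 52.7, 63.9 and 57.3 CPM against 64 and 66.6 CPM, with saline inside the dexamethasone range (log2 fold change 0.10, SE 0.30, edgeR adjusted p = 0.94).

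The non-member genes whose log2 levels over the 6 pools were most like those of Trp53inp1 were Mocs1 (Pearson r = 0.9983), Ranbp9 (0.9964) and Fmo2 (0.9955). These values follow mostly from the difference between the groups. Among members, the nearest were Nbr1 (0.97) and Gabarapl1 (0.96).

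Among the 5 LC3 and GABARAP genes, whose proteins are attached to the growing membrane, 1 rose and 4 did not pass. Gabarapl1 (chromosome 6, 129533192 to 129542331) stood at 50.7, 52.3, 28.8 and 39.2 CPM against 12.6 and 11.1 CPM, with every dexamethasone pool above saline. The means were 42.8 ± 11 against 11.8 ± 1.03 CPM (SD, n = 4 and 2; log2 fold change 1.92, SE 0.42, edgeR adjusted p = 0.016). Its call was lost when dexamethasone pool 1 (edgeR adjusted p = 0.058), saline pool 1 (0.061) or saline pool 2 (0.11) was left out, and with chondrocyte markers (0.97) or linear Xist (0.51) as a covariate. The log2 fold change in these 5 fits was 1.83, 2.08, 1.79, 1.13 and 2.67. Map1lc3b, the most studied LC3 gene, stood at 164, 186, 95 and 117 CPM against 97.6 and 121 CPM and overlapped (log2 fold change 0.43, SE 0.28, edgeR adjusted p = 0.57). Gabarap, Map1lc3a and Gabarapl2 had log2 fold changes of -0.01, 1.05 and 0.58, the last pair at under 13 CPM in every pool.

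**Figure D1:**
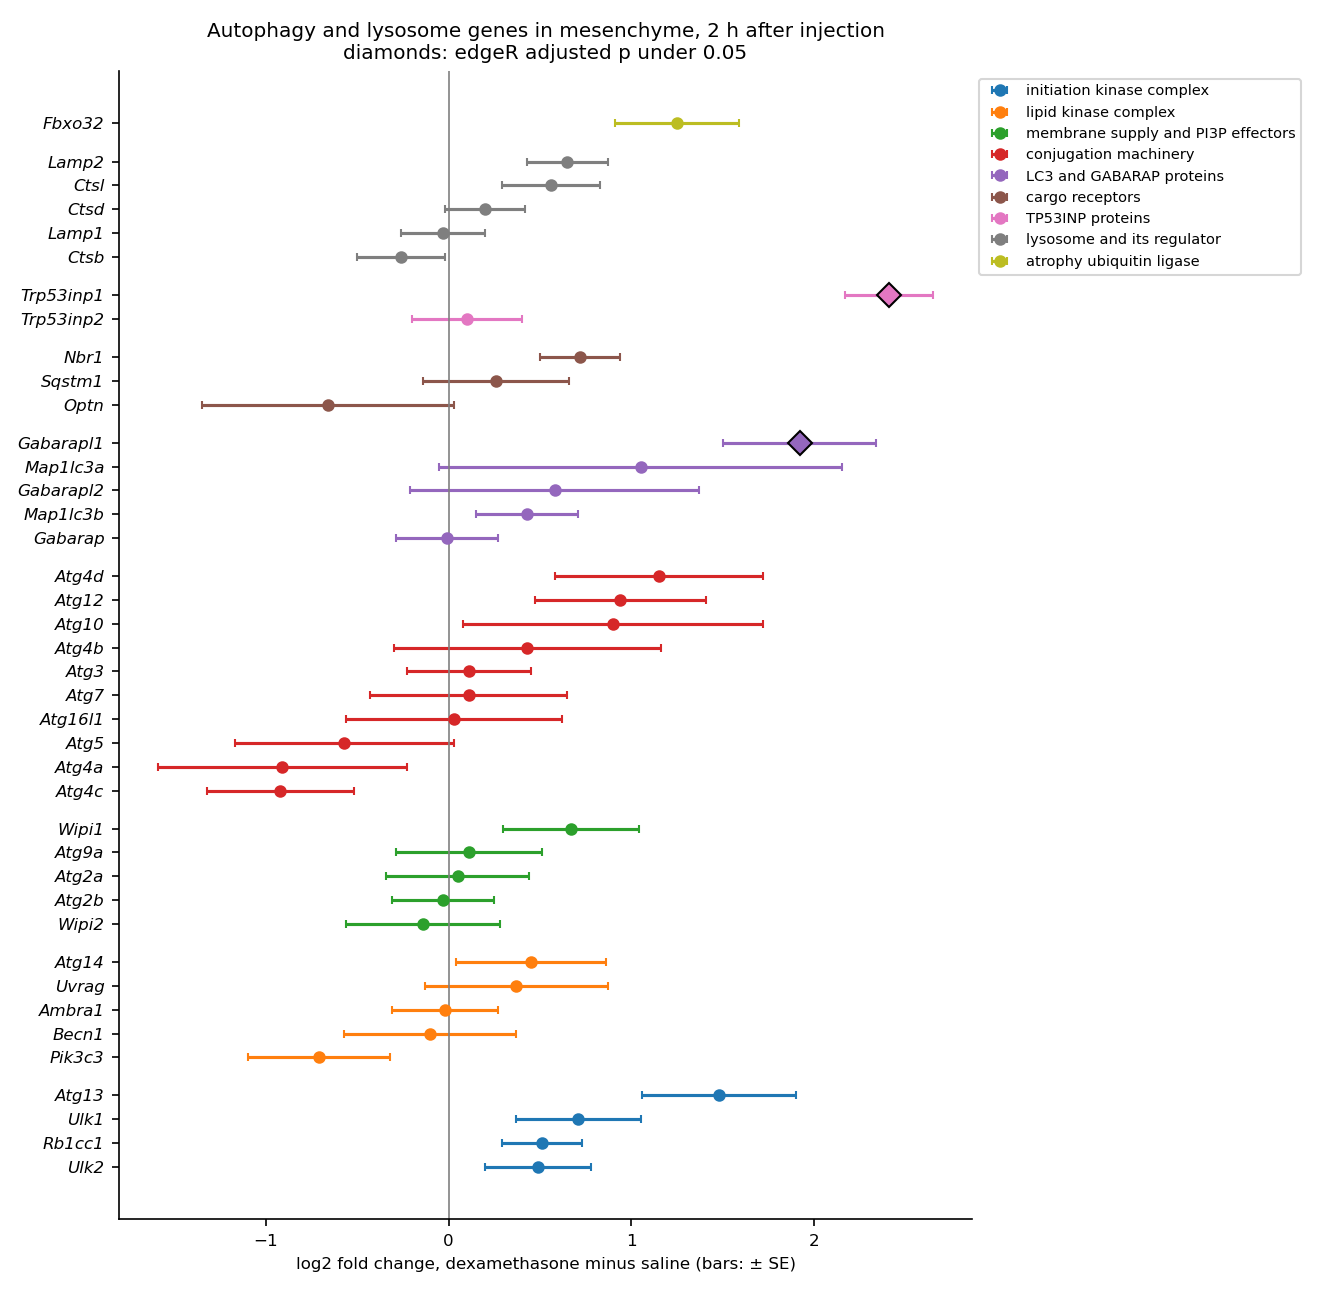
Log2 fold change of 40 members in mesenchyme, dexamethasone minus saline, with bars for ± SE and colours for roles. The 2 diamonds, Trp53inp1 at 2.41 and Gabarapl1 at 1.92, mark the members past the threshold, and 28 of 40 points lie above 0.

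All 4 genes of the initiation kinase complex had a log2 fold change above 0, with a median of 0.61, and none passed in edgeR. Atg13 (chromosome 2, 91674612 to 91710597), which encodes the adaptor that binds ULK1, stood at 50.7, 37, 33.8 and 39.2 CPM against 20.3 and 9.87 CPM (log2 fold change 1.48, SE 0.42, edgeR adjusted p = 0.071). It passed in DESeq2 (adjusted p = 0.021), in edgeR with no filter on low counts (0.025) and without saline pool 1 (0.045). Rb1cc1, which encodes the scaffold FIP200, stood at 295, 309, 355 and 353 CPM against 250 and 232 CPM (0.51, SE 0.22, edgeR adjusted p = 0.29). The groups overlapped for neither gene. Ulk1 and Ulk2, the kinases, had log2 fold changes of 0.71 (SE 0.34) and 0.49 (SE 0.29), with Ulk1 above saline in every pool and Ulk2 overlapping.

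The 5 genes of the lipid kinase complex had a median of -0.02. Pik3c3, its catalytic subunit, was below saline in every dexamethasone pool (13.6 to 29.4 against 29.9 and 43.2 CPM; log2 fold change -0.71, SE 0.39, edgeR adjusted p = 0.47), while Becn1, Atg14, Uvrag and Ambra1 overlapped and lay between -0.10 and 0.45. Becn1 counts were fractional in 100% of the bulk libraries, and the gene overlaps Cntd1. The 5 genes for membrane supply and for readers of the lipid mark had a median of 0.05. Wipi1, which encodes such a reader, was above saline in every pool (29.8 to 49.7 against 25.1 and 25.9 CPM; log2 fold change 0.67, SE 0.37), and Wipi2, Atg2a, Atg2b and Atg9a overlapped.

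The 10 genes of the conjugation machinery ran from -0.92 to 1.15, with 7 above and 3 below 0, and none passed. Atg4c, which encodes a protease that trims LC3 and GABARAP proteins, stood at 22.7, 41.5, 27.9 and 38.1 CPM against 94 and 32.9 CPM (log2 fold change -0.92, SE 0.40, edgeR adjusted p = 0.32). Saline pool 1 alone is high here, and without it the log2 fold change was 0.11. Its paralog Atg4d leaned the other way, at 7.48 to 19.6 CPM against 4.66 and 9.98 CPM (1.15, SE 0.57, edgeR adjusted p = 0.39). It overlaps Kri1, and its counts were fractional in 90.9% of the bulk libraries. Atg12, the ubiquitin-like protein joined to ATG5, was the 1 gene of this role with all dexamethasone pools above saline, by a narrow margin at 21.1 to 35.1 CPM against 7.18 and 21 CPM (0.94, SE 0.47).

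The 3 cargo receptors differed among themselves. Nbr1 (chromosome 11, 101552107 to 101581951) stood at 249, 245, 231 and 251 CPM against 140 and 171 CPM, without overlap and with little spread under dexamethasone (log2 fold change 0.72, SE 0.22, edgeR adjusted p = 0.099; DESeq2 adjusted p = 0.027). Sqstm1, which encodes p62, stood at 43.1, 29.2, 28.4 and 24.1 CPM against 18 and 36.6 CPM, with overlapping ranges (0.26, SE 0.40, edgeR adjusted p = 0.86). Optn was low, at 7.1, 4.76, 4.05 and 3.77 CPM against 8.98 and 7.4 CPM, each dexamethasone pool below saline (-0.66, SE 0.69, edgeR adjusted p = 0.77).

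Of the lysosomal genes, Lamp2 (chromosome X, 38399647 to 38456460), which encodes a major protein of the lysosome membrane, stood at 1064.1, 1466.9, 1008.3 and 1046.5 CPM against 709 and 815 CPM, without overlap (log2 fold change 0.65, SE 0.22, edgeR adjusted p = 0.14). Lamp2 lies on X, as does Atg4a, and the saline pools held the highest Xist. Lamp1 and the proteases Ctsb, Ctsd and Ctsl overlapped, with log2 fold changes of -0.03, -0.26, 0.20 and 0.56. Tfeb, which encodes a transcription factor of lysosome genes, stood at 2.84, 0, 1.8 and 0.754 CPM and at 0 in both saline pools, where 3 counts would be 1.23 and 1.8 CPM. Fbxo32 (chromosome 15, 58175879 to 58214892), which encodes the ubiquitin ligase atrogin-1, stood at 133, 101, 57.2 and 91.3 CPM against 32.3 and 52.2 CPM. All 4 pools were above saline, the third by little, and the gene missed the threshold (log2 fold change 1.25, SE 0.34, edgeR adjusted p = 0.059). It passed in DESeq2 (adjusted p = 0.017), and with chondrocyte markers as a covariate its log2 fold change was 0.12.

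Among 83 tested genes of related processes, 3 rose and 0 fell at edgeR adjusted p under 0.05, beside 1.95% and 0.74% of all genes. At an unadjusted p under 0.05, 9 were higher and 2 lower, against 879 and 692 of the 11356 genes tested. The median log2 fold change of the 83 was 0.20. Bnip3, which encodes a receptor for the removal of mitochondria, stood at 151, 151, 140 and 235 CPM against 34.1 and 36.2 CPM (log2 fold change 2.33, SE 0.30, edgeR adjusted p = 2.2e-04). Fam134b, which encodes a receptor for the removal of endoplasmic reticulum, stood at 186, 226, 115 and 167 CPM against 43.7 and 35 CPM (2.21, SE 0.31, edgeR adjusted p = 4.7e-04). Both groups are separate in each gene. Foxo3, which encodes a transcription factor known to drive autophagy genes and Fbxo32, stood at 495, 284, 306 and 327 CPM against 127 and 114 CPM (1.61, SE 0.27, edgeR adjusted p = 0.0021). None of 15 proton pump genes, 22 lysosomal hydrolase genes, 9 lysosomal membrane genes or 12 fusion genes passed, with medians of 0.11, 0.01, 0.42 and 0.09. Of the hydrolase genes, Gusb had a log2 fold change of -1.38 (edgeR adjusted p = 0.13), and Lipa, which encodes the acid lipase, 0.83 (0.22). In the other lists Vmp1, which acts in membrane supply, stood at 1.49 (0.11), and Fbxo30, another atrophy ligase, at -0.79 (0.054).

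**Figure D2:**
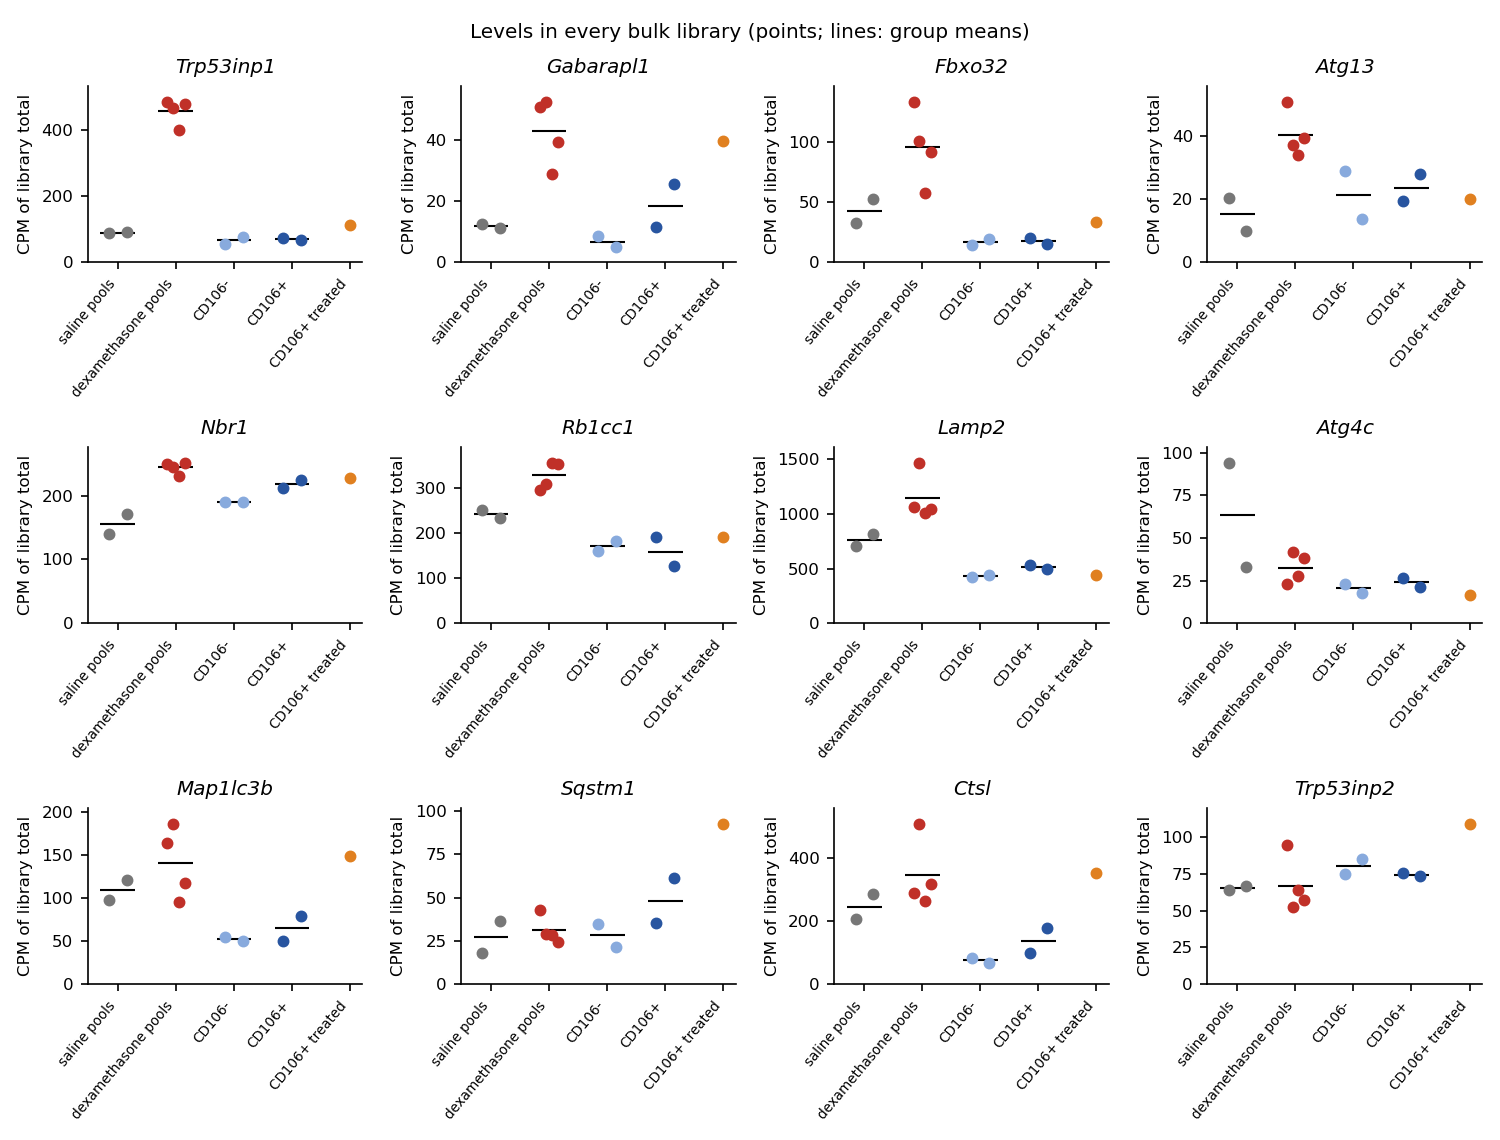
CPM of 12 members in the 11 bulk libraries, each point a library and each line a group mean. For Trp53inp1 the 4 dexamethasone pools (398 to 483 CPM) stand apart from all other libraries (54.6 to 112 CPM), while for Ctsl and Sqstm1 the treated CD106+ library is above both untreated CD106+ libraries.

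Without treatment, no member passed the test between CD106+ and CD106- libraries. The edgeR test called 0 of 40 higher, against 6.67% of 12364 genes, and 0 lower, against 3.35%. There were 6 members with an unadjusted p under 0.05, against 2446 of the 12364 genes. DESeq2 and limma-voom also called 0 members. The log2 fold change was above 0 for 31 members (77.5%, against 53% of all genes), with medians of 0.16 and 0.05. Both CD106+ libraries were above both CD106- libraries for 9 of the 40 tested members (25.7% of all genes) and below for 1 (22.1% of all genes).

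The 2 CD106+ libraries were unlike for these genes. Ctsl stood at 97 and 178 CPM against 84.1 and 66.8 CPM (log2 fold change 0.81, SE 0.29, edgeR adjusted p = 0.079), and Gabarapl1 at 11.4 and 25.5 CPM against 8.46 and 4.83 CPM (1.42, SE 0.52, edgeR adjusted p = 0.086). Ctsb stood at 131 and 221 CPM against 111 and 106 CPM (0.64, SE 0.28, edgeR adjusted p = 0.18). In each of these 3 genes the second CD106+ library was the high one. Sqstm1 stood at 35.3 and 61.1 CPM against 35 and 21.3 CPM, a narrow gap for the first library (0.73, SE 0.35, edgeR adjusted p = 0.24). Atg9a, the transmembrane protein of autophagy vesicles, stood at 10.2 and 33.8 CPM against 12.7 and 6.16 CPM and overlapped (1.17, SE 0.52, edgeR adjusted p = 0.2). Optn was lower, at 4.61 and 12.6 CPM against 22.7 and 17.1 CPM (-1.26, SE 0.49, edgeR adjusted p = 0.12). Which members were called depended on which CD106+ library was left out. Over the 11 alternatives, each library left out among them, the log2 fold change ran from 0.40 to 1.13 for Ctsl and 0.83 to 1.83 for Gabarapl1. The ranges were 0.30 to 0.97 for Ctsb, 0.37 to 1.07 for Sqstm1, 0.17 to 1.74 for Atg9a and -2.07 to -0.75 for Optn. Heart and skeletal muscle markers summed to 1041.0 CPM in library 1 and 76.2 CPM in library 2, and endothelial markers to 112 and 87.9 CPM. With the muscle markers as a covariate, 4 of 40 members were called, Atg9a, Ctsb, Ctsl and Gabarapl1, beside 1649 of 12364 genes.

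Trp53inp1 and Fbxo32, above saline in every dexamethasone pool of mesenchyme, overlapped between the fractions. Trp53inp1 stood at 72.2 and 67.3 CPM against 54.6 and 75.9 CPM (log2 fold change 0.05), and Fbxo32 at 19.9 and 15.1 against 14.2 and 19.1 CPM (0.02). Lamp2 stood at 530 and 493 CPM against 421 and 445 CPM, Map1lc3b at 49.9 and 79.6 against 54.6 and 50.1 CPM, and Trp53inp2 at 75.8 and 73.3 against 75 and 85.2 CPM. Tfeb was at 1.6 and 1.12 against 0.962 and 0.666 CPM. Atg13 stood at 19.4 and 27.8 against 28.9 and 13.5 CPM, Nbr1 at 212 and 224 against 190 and 190 CPM, Rb1cc1 at 190 and 127 against 161 and 181 CPM, and Atg4c at 26.7 and 21.2 against 23.1 and 17.6 CPM. Of these 10 genes, Lamp2, Nbr1 and Tfeb had both CD106+ libraries above both CD106- libraries, as had 25.7% of all genes tested. Of 84 related genes, 1 was higher and 3 were lower, beside 6.67% and 3.35% of all genes. Lipa stood at 130 and 155 CPM against 40 and 36.6 CPM (log2 fold change 1.85, SE 0.28, edgeR adjusted p = 3.7e-05). The protease gene Ctsc stood at 109 and 97.3 against 209 and 186 CPM, Ctsh at 373 and 327 against 742 and 626 CPM, and Foxo3 at 167 and 123 against 261 and 303 CPM. Summed mesenchyme markers were at 4390.5 and 6631.4 CPM in CD106+ against 714 and 1056.2 CPM in CD106- libraries, and epithelial markers (8 genes) at 2380.7 and 3985.9 against 5622.4 and 5064.4 CPM. Their part in these differences was not tested.

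The treated CD106+ library was past a ratio of 2 upwards for Ctsl, Map1lc3b and Gabarapl1, a share of members near that of all genes. It is a single library and is set against the same untreated CD106+ libraries as above, so no test was made, and a member was counted past a ratio of 2 on log2(CPM + 1) where the higher side was at 20 CPM or more. Of 30 members at that level, 3 were past it upwards, against 11.3% of 7755 genes, and 0 downwards, against 16.8%. The log2 ratio was above 0 for 22 and below 0 for 8, with a median of 0.33, while all genes had a median of -0.22. TMM scaling moved the latter to -0.08 and the members' median to 0.46. The treated library was above both untreated libraries for 16 of the 30 (31.4% of all genes) and below both for 5 (48.9% of all genes).

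Ctsl stood at 351 CPM (95% Poisson interval 333 to 371, for counting error only) against 97 and 178 CPM, a log2 ratio of 1.35. Map1lc3b stood at 149 CPM (137 to 162) against 49.9 and 79.6 CPM (1.19), and Gabarapl1 at 39.6 CPM (33.5 to 46.4) against 11.4 and 25.5 CPM (1.06). In each case the second untreated library was the nearer. Against it alone, none of these 3 was past a ratio of 2, and 3 others were, Atg7 and Fbxo32 upwards and Atg2a downwards. Against library 1 alone, 8 were past it, all higher. Sqstm1 stood at 92.6 CPM against 35.3 and 61.1 CPM, Fbxo32 at 33.2 against 19.9 and 15.1 CPM, and Trp53inp1 at 112 against 72.2 and 67.3 CPM. These last 3 genes were above both untreated libraries with log2 ratios of 0.93, 0.89 and 0.68. Trp53inp2 (109 CPM) and Nbr1 (228 CPM) were also above both, with log2 ratios of 0.54 and 0.07. Rb1cc1 stood at 190 CPM, Atg9a at 31.1 CPM, Atg13 at 20 CPM and Ctsb at 196 CPM, all within the untreated range. Atg4c at 16.4 CPM and Lamp2 at 437 CPM were below both untreated libraries, and Optn at 15.8 CPM and Tfeb at 3.17 CPM were above both. The Tfeb value rests on few counts, with an interval of 1.64 to 5.53 CPM.

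Other cell types differed in the treated library as well. Endothelial markers (6 genes) summed to 2240.0 CPM against 87.9 to 112 CPM, with Pecam1 at 508 CPM against at most 22.1 CPM. Macrophage and leukocyte markers (8 genes) summed to 114 CPM against 11.8 to 20.2 CPM, with Cd68, itself a lysosomal protein of macrophages, at 29 against 3.61 and 2.24 CPM. Epithelial markers summed to 1448.3 CPM against 2380.7 to 3985.9 CPM. Their part in the members' ratios was not tested.

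**Figure D3:**
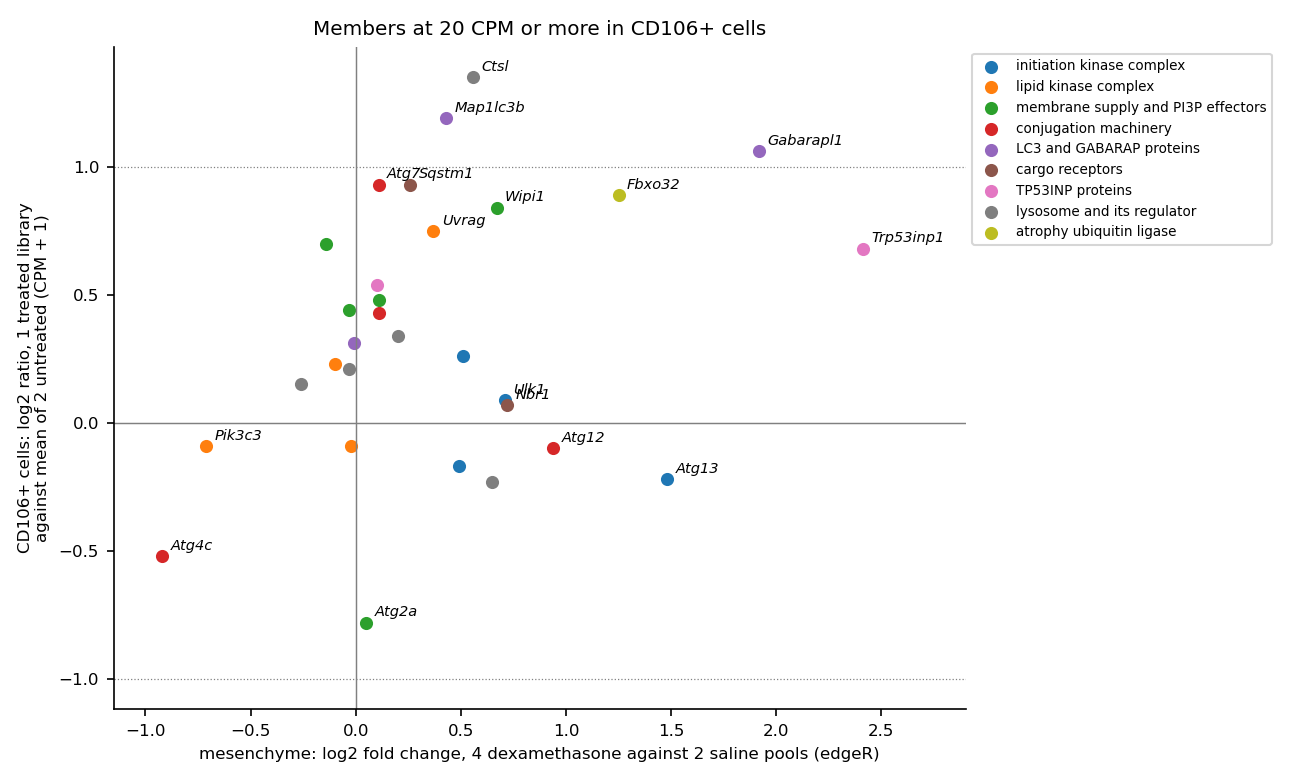
Each point is a member at 20 CPM or more in CD106+ cells, with its log2 fold change in mesenchyme on the x axis and the log2 ratio of the treated CD106+ library on the y axis, dotted lines marking a ratio of 2. Gabarapl1 is high on both (1.92 and 1.06), Trp53inp1 mainly in mesenchyme (2.41 and 0.68), and Ctsl (0.56 and 1.35) mainly in the CD106+ library. All genes had a median of -0.01 on the x axis and -0.22 on the y axis.

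Side by side, the initiation genes were above 0 in mesenchyme and near 0 in CD106+ cells. The scales differ, as all genes had a median of -0.01 in mesenchyme (TMM) and -0.22 in CD106+ cells (CPM). Atg13 had 1.48 and -0.22, Ulk1 0.71 and 0.09, Ulk2 0.49 and -0.17, and Rb1cc1 0.51 and 0.26. For Ctsl, Map1lc3b, Sqstm1 and Atg7 the treated CD106+ value was the higher, at 1.35, 1.19, 0.93 and 0.93 against 0.56, 0.43, 0.26 and 0.11. Whether these values differ between the cells was not tested, as the second rests on 1 library, and cells, tables and perhaps times differ. Of the related genes that rose in mesenchyme, Bnip3 stood at 55.4 CPM in the treated CD106+ library against 26.5 and 28.6 CPM, above both, Fam134b at 9.23 against 60.6 and 24 CPM, below both, and Foxo3 at 117 against 167 and 123 CPM, below both.

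In the single cells 24 hours after injection, neither Trp53inp1 nor Gabarapl1 had the higher summed level under dexamethasone. For Trp53inp1 this rested on 1 saline cell. Known glucocorticoid targets went both ways. Fkbp5 was at 53.6 CPM in dexamethasone against 139 CPM in saline, and Tsc22d3 at 166 against 746 CPM. Per1 was the higher under dexamethasone (13.7 against 7.21 CPM), as were Glul (119 against 84.6) and Errfi1 (137 against 9.09). Errfi1 reached 3337.6 CPM in 1 dexamethasone cell. No animal or litter is named for the cells, so each group is 1 sample and no test was made. Counts were summed over the cells of a group, and 32 members reached 20 CPM in 1 group or the other. Of these, 8 were past a ratio of 2 upwards, against 29.3% of 7682 genes, and 9 downwards, against 35%, with medians of -0.17 for members and -0.14 for all genes. Trp53inp1 stood at 51.8 CPM (95% Poisson interval 48 to 55.9) in dexamethasone and 92.6 CPM (87.8 to 97.6) in saline, but 96.9% of the saline counts came from 1 cell. That cell held 920 CPM and no other saline cell more than 27.7 CPM, and without that cell Trp53inp1 was past the ratio upwards. Trp53inp1 was also past it upwards without the cells with Pecam1 above 100 CPM, which included every saline cell with a count. Without dexamethasone cell 1 (413 CPM), dexamethasone cell 2 (331 CPM) or saline cell 7 (0 CPM), Trp53inp1 was past the ratio downwards. It had a count in 8 of 15 dexamethasone cells (exact binomial interval 26.6 to 78.7%) and in 4 of 11 saline cells (10.9 to 69.2%). Gabarapl1 stood at 2.06 CPM against 33.2 CPM, with counts in 5 of 15 and 10 of 11 cells, and 78.9% of the saline counts from 1 cell. Fbxo32 stood at 1.91 against 4.78 CPM.

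Counts were found for 9 members in at least 11 of the 15 dexamethasone and 9 of the 11 saline cells. Of these, Ulk2 and Ctsb were past the ratio, both lower, and 7 were not (Map1lc3b, Lamp2, Gabarap, Nbr1, Rb1cc1, Ctsd and Ctsl). Map1lc3b was found in 15 of 15 and 11 of 11 cells, at 1103.7 and 1069.7 CPM summed, with per-cell medians of 720 and 1211.4 CPM. Lamp2 was found in 15 of 15 and 9 of 11 cells, at 1028.0 and 775 CPM summed. Gabarap was found in 13 of 15 and 11 of 11 cells, at 428 and 267 CPM. Ctsb stood at 342 against 861 CPM (log2 ratio -1.33), with medians of 122 and 715 CPM and counts in 14 of 15 and 11 of 11 cells. Its ratio stayed past 2 whichever of the 26 cells was left out. The cells of the groups overlapped for each of these genes. The cells were of mixed kinds, with erythroid markers at 270798.6 CPM in 1 dexamethasone cell and smooth muscle markers at 53714.5 CPM in 1 saline cell.

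**Figure D4:**
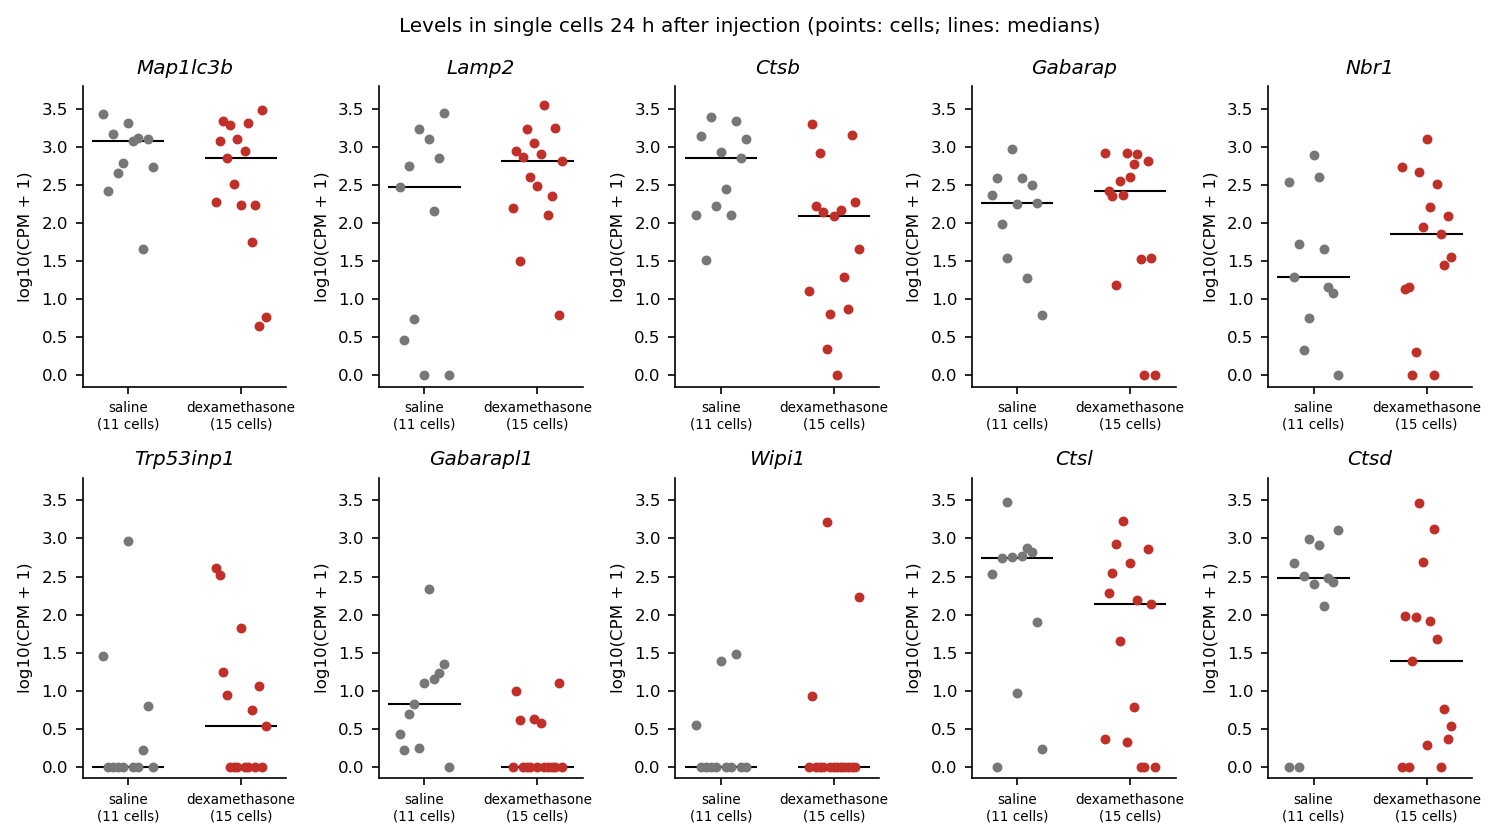
Level of 10 members in each cell on a log10(CPM + 1) scale, 11 saline and 15 dexamethasone cells, with lines at the medians. Map1lc3b is found in every cell, Trp53inp1, Gabarapl1 and Wipi1 are at 0 in many, and the Wipi1 sum rests on 1 high dexamethasone cell.

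Of the other members past a ratio of 2, most rested on 1 cell. For 14 of the 17, over 50% of the counts in the higher group came from a single cell. The dexamethasone sums were the higher for Ulk1 (47.5 against 12 CPM), Atg2a (92.8 against 35.6), Atg2b (98.1 against 39.1), Wipi1 (109 against 5.46), Atg4a (21.3 against 0.135), Atg7 (115 against 32.7) and Lamp1 (140 against 39). Optn stood at 35.5 CPM, with 96.1% of its counts from 1 cell, and had no count in 11 saline cells (exact upper bound of the share 28.5%). With 3 counts taken as the limit for the summed saline cells, its sum was at least 176-fold higher, a bound for counting error only. Without dexamethasone cell 1 its log2 ratio went from 5.19 to 1.30. The saline sums were the higher for Ulk2 (216 against 32 CPM), Becn1 (168 against 32.2), Pik3c3 (28.5 against 4.19), Atg9a (72.4 against 9.37), Wipi2 (65.7 against 0.914), Atg5 (55.1 against 7.77) and Map1lc3a (41 against 2.06). Whichever cell was left out, 10 of the 17 stayed past the ratio, and of these Ulk2, Atg9a and Ctsb also kept 20 CPM in the higher group each time. Without the 1 dexamethasone and 5 saline cells with Pecam1 above 100 CPM, 18 members were past it, 14 of them higher, and Ulk2 and Pik3c3 turned from -2.71 and -2.51 to 2.42 and 2.55. The log2 ratio of Atg9a went from -2.82 to -0.08 and that of Gabarapl1 from -3.48 to -0.59, while Ctsb stayed past the ratio. Saline cells were the deeper, with a median of 1349765 counts and 5198 genes against 852850 counts and 3508 genes, and a median of 21 members found per cell against 15. The part of depth in the numbers of cells with a count was not tested.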

How the data were processed

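Values are the deposited expected counts by gene symbol, in 4 tables covering 11 bulk libraries and 26 cells. In bulk, 5.35 to 9.21% of a library's values are fractional. The submitters' processing notes name the build mm10 and the tools TopHat2, Bowtie2, Trim Galore, Partek, HOMER and MACS2 without roles. How reads were assigned to genes, and whether by strand, is not given in the sources used here. Becn1, Ctsb, Atg4d, Atg4a, Atg12 and Map1lc3b, which overlap another protein-coding gene, are therefore uncertain. So are Gabarapl1, Lamp2, Fbxo32, Rb1cc1, Wipi1 and Atg7, which overlap a long noncoding RNA gene. Ctsb counts were fractional in 100% of bulk libraries. Without a protein-coding overlap, counts were fractional in 63.6% of bulk libraries for Trp53inp1 and 54.5% for Nbr1 and Lamp2. The share was 36.4% for Sqstm1 and Ambra1 and 9.09% for Atg16l1. The column of the treated CD106+ table carries a code found in no label and was assigned because the table is named for that sample alone.

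Expected counts were rounded, kept by filterByExpr, scaled by TMM and tested with edgeR's quasi-likelihood test (robust, Benjamini-Hochberg over all genes tested, threshold 0.05; R 4.3.3, edgeR 4.0.16, limma 3.58.1). SE is the fold change over the root of F. CPM are of column totals. Alternatives were RLE scaling, no filter, DESeq2 1.42.0, limma-voom, the replicate block, each library left out, Rn45s removed, covariates, other pseudocounts (0.1 and 5) and a minimum of 5 CPM. Untested comparisons used a pseudocount of 1. Poisson and binomial intervals cover counting error only. The fit was tested on simulated data. No 2 replicates agreed within sampling noise. The accessibility samples were not analysed here. The members, lists and tests were chosen with earlier results of these data known. All 41 members could be named. A value in every bulk library was given for members called, for the 8 and 6 with the smallest p in the 2 tested comparisons and for 8 set genes. Up to 2 genes of each related list were allowed by smallest p. Ctsh, Per1, Glul and Errfi1 fall outside these rules and were named after their values were seen. Positions are RefSeq GRCm38.p6. No cells were clustered and no doublet caller was run. Plots used matplotlib 3.10.9.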

Additional observations from a re-analysis of the deposited data

Results flagged for a closer look

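The level of Atg10, which encodes an enzyme that joins ATG12 to ATG5, was 1.89 CPM in dexamethasone pool 1 against 9.86, 9.46 and 8.67 CPM in the other pools, further from the rest than Dixon's criterion allows for 4 values. By the same criterion Lamp2 stood apart in dexamethasone pool 2, at 1466.9 CPM against 1008.3 to 1064.1 CPM. In all, 41 groups of 4 pools were examined, of which chance flags about 1 in 20.

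Optn and Lamp2 had opposite signs in the 2 bulk dexamethasone comparisons, though 1 side of each was weak. Optn was below saline in every mesenchyme pool (log2 fold change -0.66, SE 0.69), as were 13% of all genes. It was above both untreated libraries in the treated CD106+ library (log2 ratio 0.81), at under 20 CPM. Lamp2 was above saline in every mesenchyme pool (log2 fold change 0.65), as were 9.99% of all genes. It was below both untreated libraries in the treated CD106+ library (log2 ratio -0.23). There 48.9% of all genes at 20 CPM or more were below both, and their median log2 ratio was -0.22. The difference was not tested in either gene.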

How the results depend on the processing

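The number of members called in mesenchyme was 2, and it was 2 with RLE scaling, limma-voom, Rn45s removed or log2 Xist as a covariate. It was 4 with no filter, 5 in DESeq2, 1 with the replicate block, 1 with chondrocyte markers as a covariate and 0 with linear Xist as a covariate, which was chosen after seeing the data. Leaving out each pool gave 1 to 3. Over all genes the calls numbered 306, against 598 with no filter, 512 in DESeq2, 154 with the block, 186 with log2 Xist and 26 with chondrocyte markers. The numbers pair libraries by name only: deviations of same-numbered pools correlated at -0.0522 and 0.0549, and of same-numbered CD106 libraries at 0.00495. Under the block Gabarapl1 had an edgeR adjusted p of 0.054, and 0 members were called in CD106. Signs turned for Trp53inp2 (-0.16), Map1lc3b (-0.42) and Sqstm1 (-0.20) with chondrocyte markers, and for Trp53inp2 (-0.38), Sqstm1 (-0.59) and Atg4c (1.28) with linear Xist. With a pool left out, Trp53inp2 ran from -0.11 to 0.23, Sqstm1 from -0.09 to 0.83 and Atg4c from -1.51 to 0.11.

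In CD106 the count of 0 became 1 with no filter (Ctsl), 4 with muscle markers as a covariate, and 0 to 7 with a library left out. Over all genes the 1239 calls became 2756 without CD106+ library 1, 546 without CD106- library 1 and 686 without CD106- library 2. Signs turned for Fbxo32 in limma-voom (-0.02) and with muscle markers (-0.21). With a library left out, Fbxo32 ran from -0.26 to 0.29, Trp53inp1 from -0.21 to 0.35 and Map1lc3b from -0.03 to 0.49. In the treated CD106+ library the 3 members past 2-fold became 5 with TMM, 5 at a minimum of 5 CPM, 2 with a pseudocount of 5, and 3 to 8 against 1 untreated library. In the cells the count of 17 was 16 to 21 with a cell left out. Of the 17, signs turned without the Pecam1 cells for Ulk2 (2.42) and Pik3c3 (2.55). Trp53inp1, not among the 17, turned there from -0.83 to past a ratio of 2 upwards, as no saline cell left had a count. It also turned without saline cell 6, and was past the ratio downwards without dexamethasone cell 1, dexamethasone cell 2 or saline cell 7. With 1 cell left out Atg2a ran from -5.08 to 6.55, Lamp1 from -0.19 to 4.37, Atg2b from -0.44 to 6.09 and Atg7 from -1.86 to 4.86. The cause was not tested.

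Depth limits Tfeb, Map1lc3a, Gabarapl2, Atg4a, Atg4b, Atg10 and Optn most, as few counts lie behind each.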
